A study of Mus musculus with 4 samples.

Results

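The nuclear genes for the subunits of oxidative phosphorylation were followed across 4 microarrays of mouse pro-B cells. Members were all probe sets with a single gene symbol that starts with Nduf, Uqcr, Atp5, Cox4, Cox5, Cox6, Cox7 or Cox8, or is Sdha, Sdhb, Sdhc or Sdhd, leaving out Cox6a2 and pseudogene symbols. This gave 112 probe sets of 88 genes, out of 21640 single-symbol probe sets and 34760 in all. The RNA was that of B220+ c-Kit+ bone marrow cells, sorted from wild-type mice of the C57BL/6 strain, and replicates 1 to 4 were each hybridized to an Affymetrix Mouse Gene 1.0 ST array. Because all samples belong to 1 group and age is not given in the sources used here, no comparison between groups was made, and the values below are descriptions without a test. Whether the replicates were separate animals is not given in the labels. Xist, transcribed from the inactive X chromosome of females, had a log2 value of 5.48 on the array of replicate 3, against 13.17, 13.04 and 13.05 on those of replicates 1, 2 and 4. The Y-linked genes Eif2s3y, Kdm5d and Uty had 10.05, 9.10 and 9.31 on replicate 3. On the other arrays they had 4.62 to 5.17, 5.46 to 6.18 and 4.29 to 5.25. By these genes the RNA of replicate 3 was of male origin and that of the other replicates of female origin. The part of the spread described here that is technical was not tested, and cell type markers given below differed between the arrays as well.

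Oxidative phosphorylation couples the passage of electrons from NADH and succinate to oxygen with the synthesis of ATP. Complex I (NADH dehydrogenase), complex II (succinate dehydrogenase), complex III (cytochrome bc1) and complex IV (cytochrome c oxidase) form the respiratory chain of the inner mitochondrial membrane, and complex V is the ATP synthase that the resulting proton gradient drives. Most subunits are encoded in the nucleus, a few core subunits are encoded by mitochondrial DNA, and early B-cell precursors are proliferating cells that use both respiration and glycolysis. By complex the members were 39 probe sets of complex I, 4 of complex II, 11 of complex III, 22 of complex IV and 29 of complex V, with 7 more for the complex I assembly factors Ndufaf1 to Ndufaf7, which are no subunits but carry the same symbol stem. Ndufa4, once counted with complex I and now regarded as a complex IV subunit, was placed with complex IV together with its paralogue Ndufa4l2.

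The promoters of these genes were searched for motifs, which the choice of members did not use, and each motif was found in a minority of them. RefSeq promoters (GRCm38.p6, 250 bases before to 50 after each annotated start) were found for 73 of the 88 genes, as 78 promoters. The letters GCGCATGCG, a core of the site bound by NRF1, a transcription factor known for respiratory chain genes, stood on either strand in 10 member promoters (12.8%), against 2.35% of 21263 promoters of protein-coding genes and 1.75% of all 32851 promoters. In most of these a C followed, giving 10 letters that read the same on both strands. The following 40-base windows, all before the start site, show it in capitals in members of complexes I, IV and V and in an assembly factor, 5′ to 3′ on the strand of the gene.
Ndufa11, chr17:56717687-56717726, plus strand: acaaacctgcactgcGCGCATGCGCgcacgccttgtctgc
Cox6a1, chr5:115349096-115349135, minus strand: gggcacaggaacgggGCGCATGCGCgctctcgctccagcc
Atp5g2, chr15:102671065-102671104, minus strand: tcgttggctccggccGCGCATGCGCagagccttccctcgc
Atp5k, chr5:108434425-108434464, minus strand: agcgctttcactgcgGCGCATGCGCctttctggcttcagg
Ndufaf4, chr4:24897955-24897994, plus strand: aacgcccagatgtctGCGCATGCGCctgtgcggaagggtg

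A looser form of the same motif, GCGCANGCG, which also counts every match of the stricter one, was present in 22 member promoters (28.2%), against 8.58% of the protein-coding and 6.25% of all promoters. CCGGAAG, the core of ETS family sites such as that of GABPA, was present in 18 (23.1%, against 11.6% and 8.86%), and AAGATGGC, the core of the site of YY1, in 10 (12.8%, against 3.05% and 2.75%). No member promoter had overlapping ETS and YY1 matches. Of the 10 YY1 matches 8 lay after the annotated start, 22 to 38 bases past it, and the motif holds the letters ATG, so that a start codon in this context is counted too. The matches of Atp5pb and Atp5j, which lay before the start, are not shown. The 30-base windows below show the YY1 letters in capitals for 3 members of complex I and 1 of complex V. In the order shown, the motif lies 24, 29, 22 and 23 bases past the annotated start.
Ndufs7, chr10:80249462-80249491, plus strand: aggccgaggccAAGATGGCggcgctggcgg
Ndufa9, chr6:126849097-126849126, minus strand: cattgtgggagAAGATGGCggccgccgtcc
Ndufa3, chr7:3617384-3617413, plus strand: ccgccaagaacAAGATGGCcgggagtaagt
Atp5j2, chr5:145191500-145191529, minus strand: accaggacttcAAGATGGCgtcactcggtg

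Other motifs were rarer or close to the background. The CREB site TGACGTCA was present in 4 member promoters (5.13%, against 2.23% of protein-coding and 1.79% of all promoters) and the ERR site TCAAGGTCA in 2 (2.56%, against 0.334% and 0.423%), namely those of Atp5g3 and Sdhd. The GC box of Sp and Klf factors, GGGCGGGG, was present in 19.2% of member promoters, against 23.6% of protein-coding and 17.6% of all promoters, and the TATA box letters TATAAA in 11.5%, against 12.6% and 13.6%. Both strands were searched throughout. The median GC content was 58.0% in member promoters, against 56.3% in protein-coding and 52.7% in all promoters; its part in these shares was not tested, and a match of letters is a description and not a site.

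**Figure D1:**
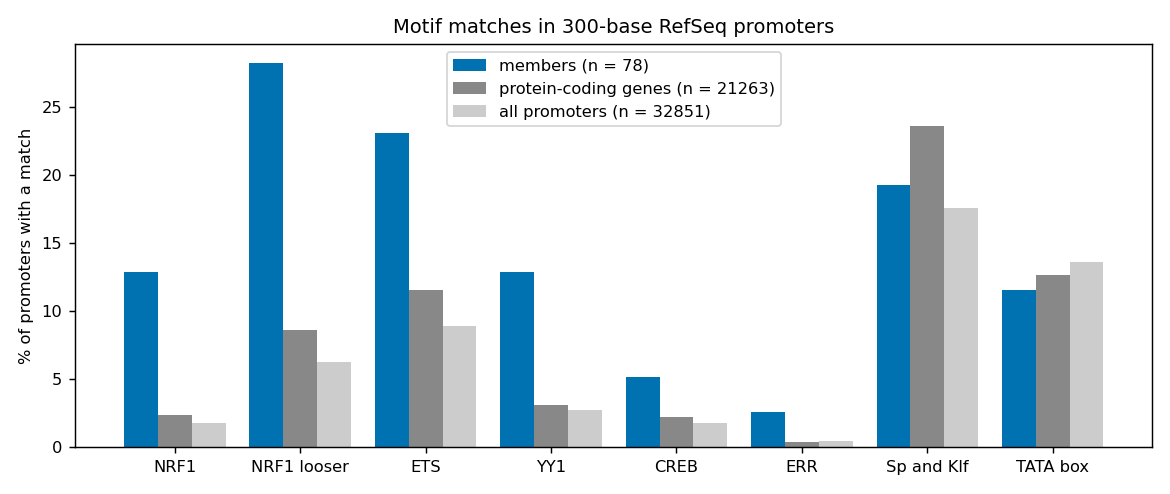
Share of RefSeq promoters with at least 1 match of each motif on either strand (vertical axis, %), for the promoters of member genes, of protein-coding genes and of all genes (bars, left to right). The NRF1 letters stand at 12.8% in member promoters against 2.35% and 1.75%, while the Sp and Klf and TATA box bars are of like height.

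Nearly all members gave signal above background. As background served 1248 probe sets of olfactory, vomeronasal and taste receptors, which lymphocytes are not known to use; their 95th percentile on each array, called the line, lay between 6.53 and 6.62 on the log2 scale. On all 4 arrays 108 of the 112 members (96.4%) exceeded it, against 63.5% of single-symbol probe sets and 60% of all probe sets. The count was 106 with the 99th percentile of the same receptor genes as the line, which 52% of single-symbol probe sets exceeded. All 39 probe sets of complex I, 4 of complex II, 11 of complex III and 7 of assembly factors were above the line, as were 28 of 29 of complex V and 19 of 22 of complex IV. Mean values of members ranged from 4.93 to 13.6. Since probe sets differ in how well they hybridize, levels of different probe sets are not comparable, and neither are their distances to the line given below. Many subunit genes have processed pseudogenes, and signal from near-identical copies cannot be told apart by these probe sets. Another 6 probe sets carried a second symbol beside that of a subunit gene, among them those of Cox7c and Ndufb4, and were no members.

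**Figure D2:**
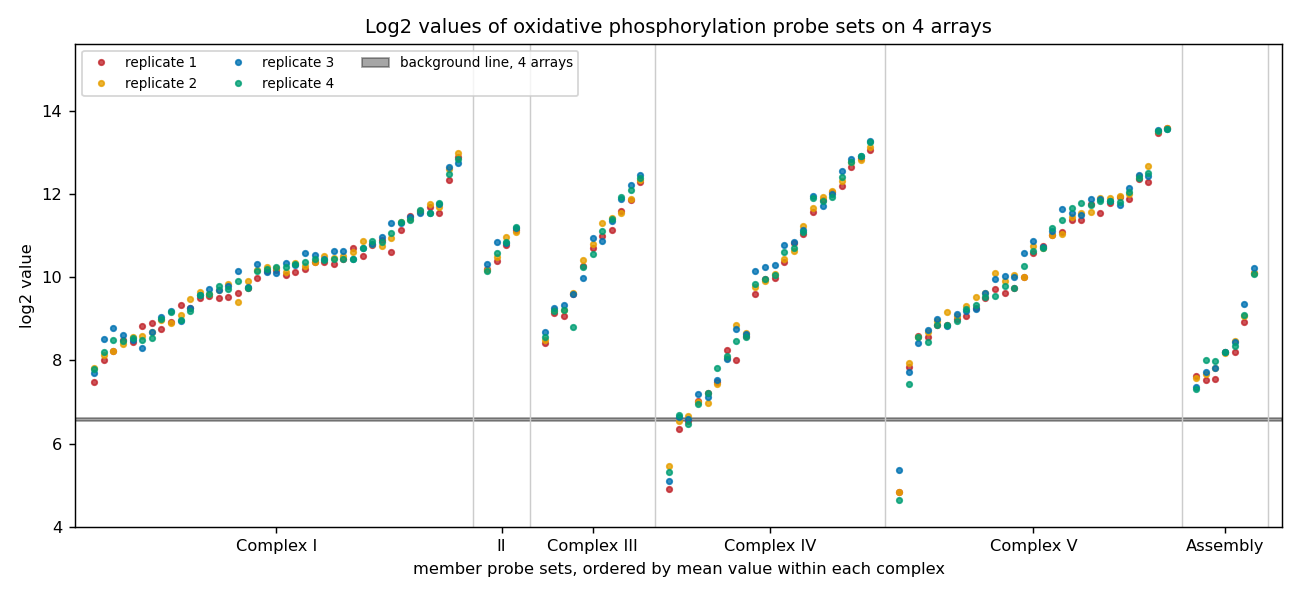
Log2 values (vertical axis) of the 112 member probe sets on the 4 arrays (coloured points), ordered by mean value within each complex (horizontal axis); the grey band spans the background lines of the 4 arrays, 6.53 to 6.62. Only 2 probe sets, 1 of Cox7b2 in complex IV and 1 of Atp5h in complex V, lie below the band on every array. Heights of different probe sets are not comparable.

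The spread of the members over the arrays was close to that of all single-symbol probe sets and somewhat above that of probe sets of like mean value. The median SD was 0.123 on the log2 scale (n = 4 arrays), against 0.125 over all single-symbol probe sets and 0.107 over those with a mean value in the members' interquartile range of 8.93 to 11.3. Among members 45 had an SD under 0.1 and 15 an SD over 0.2. The smallest spreads were those of Ndufaf7, a methyltransferase needed for complex I assembly (SD 0.014), and Atp5d, the delta subunit of ATP synthase (SD 0.017). An array far from the others by Dixon's ratio, which sets its gap to the nearest value against the range, was found for 5 members (4.46%), against 5.35% of single-symbol probe sets. By complex the median SD was 0.122 for complex I, 0.072 for complex II, 0.162 for complex III, 0.110 for complex IV, 0.125 for complex V and 0.151 for the assembly factors.

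The lowest and highest values were not spread evenly over the arrays. The value was lowest on the array of replicate 1 for 59 of the 112 members (52.7%), against 29.2% of single-symbol probe sets, and highest on that of replicate 3 for 49 (43.8%), against 21.2%. Both held for 31 members (27.7%), against 8.38% of single-symbol probe sets. The lowest value fell on replicates 2, 3 and 4 for 17, 15 and 21 members (15.2%, 13.4% and 18.8%), against 21.3%, 23.7% and 25.8% of single-symbol probe sets. The highest fell on replicates 1, 2 and 4 for 11, 35 and 17 members (9.82%, 31.2% and 15.2%), against 28.4%, 27.5% and 22.9%. Of these 6 shares, that of replicate 2 as the highest array alone was above the background. In size these differences were slight. The median shift of members on the array of replicate 1 from the mean of the other arrays was -0.10 on the log2 scale, with 87 of 112 lower. Over all single-symbol probe sets it was -0.01, with 11131 of 21640 lower. For replicate 3 the members' median shift was 0.08, with 77 of 112 higher, against -0.01 and 10483 of 21640 higher. On those of replicates 2 and 4 it was 0.01 each, against 0.01 and 0.00.

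**Figure D3:**
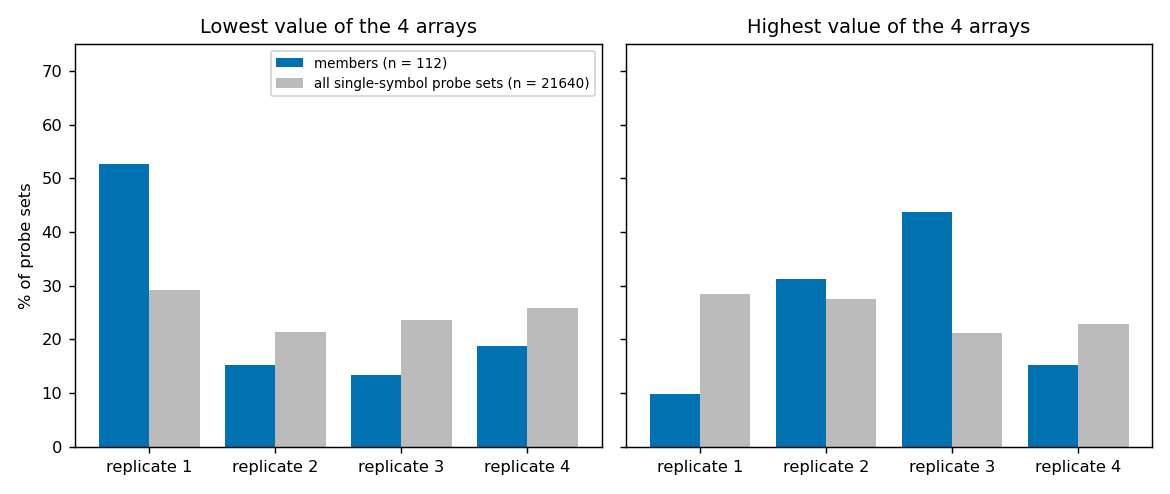
Share of probe sets (vertical axis, %) whose lowest (left panel) or highest (right panel) value fell on each of the 4 replicate arrays (horizontal axis), for the 112 members and all 21640 single-symbol probe sets (bars, left to right). Members stand at 52.7% for lowest on replicate 1 and 43.8% for highest on replicate 3, against 29.2% and 21.2%.

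Markers of cell types moved on all 4 arrays. All 9 erythroid markers with a probe set were lower on the array of replicate 1, at a median shift of -1.61, and the median of their log2 values was 8.26 there, against 9.93, 9.81 and 9.87 on those of replicates 2, 3 and 4. The 11 pro-B cell markers, all above background, were shifted by a median of 0.76 there (10 of 11 higher), and the 7 markers of pre-B and immature B cells by 0.63 (7 of 7 higher). Granulocyte and monocyte markers were higher in 9 of 12 cases for replicate 3, at a median of 0.21. Erythroid markers were higher there in 9 of 9, at 0.46. On the array of replicate 2, where the members' median shift was 0.01, erythroid markers were shifted by a median of 0.62 (9 of 9 higher). Granulocyte and monocyte markers were shifted there by -0.35 (9 of 12 lower). Pro-B cell markers were shifted by -0.28 (9 of 11 lower) and those of pre-B and immature B cells by -0.01. On the array of replicate 4, where the members' median shift was 0.01, granulocyte and monocyte markers were shifted by a median of 0.23 (8 of 12 higher). Erythroid markers were shifted there by 0.45 (9 of 9 higher). Those of pro-B cells were shifted by -0.58 (8 of 11 lower) and those of pre-B and immature B cells by -0.74 (7 of 7 lower). The 9 cell cycle genes had median shifts of 0.04 and -0.02 on the arrays of replicates 1 and 3, and the 8 housekeeping genes -0.04 and 0.06. The part of any of these in the members' shifts was not tested, and in bulk samples fewer cells of a type and less RNA per cell cannot be told apart. All 9 erythroid and all 12 granulocyte and monocyte markers were above background on every array. Of plasma cell markers 7 of 7, of megakaryocyte and platelet markers 5 of 5 and of T and NK cell markers 7 of 8 were above it. So were 63.5% of single-symbol probe sets, and list genes were given by the probe set with the highest mean. On the arrays of replicates 1 to 4 the median shifts of plasma cell markers were 0.09, 0.03, 0.02 and -0.06. Those of megakaryocyte and platelet markers were 0.28, 0.32 (5 of 5 higher), -0.02 and -0.50 (5 of 5 lower). Those of T and NK cell markers were -0.08, -0.05, -0.01 and 0.05.

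Other large housekeeping complexes had the same order of arrays at like or higher shares. The lowest value on replicate 1 together with the highest on replicate 3, found for 27.7% of members, was found for 37.6% of mitochondrial ribosomal protein, 30.3% of cytosolic ribosomal protein and 45.7% of proteasome probe sets. Beside the members' 52.7%, the lowest value fell on replicate 1 for 64.7% of 85 probe sets of mitochondrial ribosomal protein genes, 44.8% of 201 of cytosolic ribosomal protein genes and 71.7% of 46 of proteasome subunit genes, with median shifts there of -0.16, -0.11 and -0.19. On the array of replicate 3 the highest value fell for 49.4%, 59.7% and 56.5% of them, beside 43.8% of members, with median shifts of 0.10, 0.17 and 0.12.

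Every complex had a median below 0 on replicate 1 and above 0 on replicate 3. The median shift on the array of replicate 1 was -0.10 for complex I, -0.06 for complex II, -0.10 for complex III, -0.12 for complex IV, -0.10 for complex V and -0.21 for the assembly factors. On the array of replicate 3 the medians were 0.04, 0.09, 0.17, 0.11, 0.06 and 0.04 in the same order of complexes. On that of replicate 2 they were 0.02, -0.06, 0.03, -0.05, 0.06 and -0.03, and on that of replicate 4 0.01, 0.0007, 0.03, 0.01, -0.02 and -0.02. Complex II was thus as low on replicate 2 as on replicate 1, and complex V as high on replicate 2 as on replicate 3. All 4 genes of complex II were lower on the array of replicate 1, as were 29 of 39 probe sets of complex I, 9 of 11 of complex III, 17 of 22 of complex IV, 23 of 29 of complex V and 5 of 7 of assembly factors. Over all single-symbol probe sets 11131 of 21640 were lower there.

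**Figure D4:**
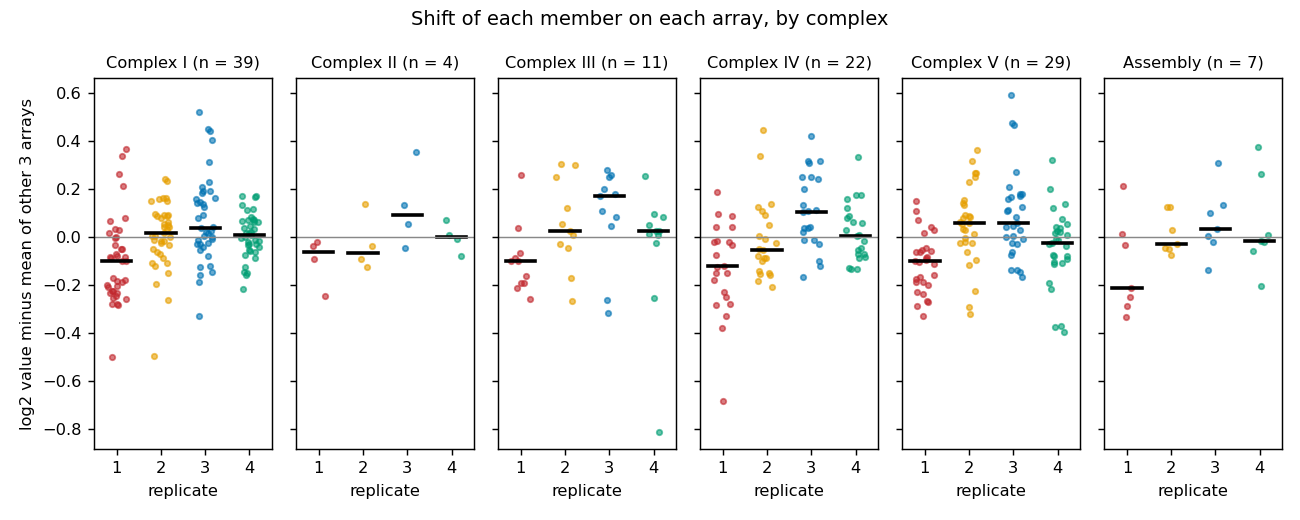
Distance on the log2 scale between each member's value on 1 array and the mean of its remaining 3 values (vertical axis), by replicate (horizontal axis) and complex (panels); points are probe sets and bars are medians. The bars of replicate 1 lie between -0.21 and -0.06 and those of replicate 3 between 0.04 and 0.17; the lowest point, at -0.81 on replicate 4, is a probe set of Uqcrb.

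In complex I, the entry point of electrons from NADH, core subunits differed in which array was highest. Ndufv1, which binds NADH and the flavin cofactor, had log2 values of 10.31, 10.47, 10.64 and 10.44 on the arrays of replicates 1 to 4. Ndufs1, the largest iron-sulfur subunit of the peripheral arm, had 9.49, 9.70, 9.68 and 9.79. Both were lowest on the array of replicate 1, by 0.21 and 0.23 from the mean of the others, with the highest value on replicate 3 for Ndufv1 and on replicate 4 for Ndufs1. Ndufs7, an iron-sulfur subunit of the core, had 12.88, 12.98, 12.75 and 12.84, lowest on replicate 3. The largest spreads of the complex were those of accessory subunits. Ndufa6 had 9.62, 9.39, 10.15 and 9.89 (SD 0.33) and Ndufb6, of the membrane arm, 10.60, 10.93, 11.30 and 11.06 (SD 0.29). Both were highest on the array of replicate 3. The remaining single-gene probe sets of the complex had SDs of 0.031 (Ndufs4) to 0.26 (Ndufb3).

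Some members of complex I ran against the majority. Ndufs5 had 8.90 on the array of replicate 1, against 8.68, 8.68 and 8.54, and Ndufa2 had 10.70, against 10.60, 10.44 and 10.43. Of the 5 genes of the complex with a pair of probe sets, Ndufs3, Ndufab1, Ndufa11 and Ndufb11 had neither the highest nor the lowest array in common. Ndufs3, a core subunit, had 8.83, 8.58, 8.30 and 8.49 by probe set 10386171, highest on replicate 1 and lowest on replicate 3. By probe set 10484912 it had 10.44, 10.50, 10.62 and 10.43, highest on replicate 3. Ndufab1, the mitochondrial acyl carrier protein, had 9.33, 9.08, 8.94 and 8.96 by probe set 10567657 and 9.52, 9.83, 9.79 and 9.72 by probe set 10568859. Ndufa11, an accessory subunit, had 10.37, 10.50, 10.44 and 10.41 by probe set 10434664 and 10.36, 10.36, 10.54 and 10.44 by probe set 10446166. In each of these 3 genes an array that was highest by one probe set was lowest by the other, and which of them reports the gene was not tested.

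Complex II, the only complex without a mitochondrially encoded subunit, had the lowest median SD of the complexes. Sdha, the flavoprotein that oxidizes succinate, had 11.12, 11.08, 11.19 and 11.20 on the arrays of replicates 1 to 4, and Sdhb, the iron-sulfur subunit, 10.19, 10.18, 10.30 and 10.14. Sdhc, a membrane anchor, had 10.78, 10.95, 10.81 and 10.84. These 3 had SDs of 0.058 to 0.074. Sdhd, the other anchor, had 10.39, 10.48, 10.84 and 10.58 (SD 0.20), with the highest value on replicate 3.

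In complex III, which passes electrons from ubiquinol to cytochrome c, the core proteins shared the lowest array. The Rieske iron-sulfur protein Uqcrfs1 had 8.41, 8.50, 8.67 and 8.55, and the core protein Uqcrc1 had 11.13, 11.41, 11.36 and 11.38. The other core protein, Uqcrc2, had 11.85, 11.89, 12.22 and 12.09. All 3 were lowest on replicate 1, and Uqcrfs1 and Uqcrc2 were highest on replicate 3, Uqcrc1 on replicate 2. Uqcr11, a small accessory subunit, went the other way by both of its probe sets, with 10.99, 11.30, 10.87 and 11.11, and 10.25, 10.41, 9.99 and 10.25, lowest on replicate 3 each time. Uqcrb, which lies at the ubiquinone-binding side, had 3 probe sets that did not move alike. Probe set 10360026 had 9.59, 9.62, 9.59 and 8.79, the largest SD of all members (0.41), which rested on replicate 4. Probe set 10412711 had 11.60, 11.54, 11.89 and 11.93 (SD 0.20), with replicate 4 highest, and probe set 10410259 had 12.29, 12.34, 12.44 and 12.37 (SD 0.066).

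Complex IV, which reduces oxygen, is built in part from subunits with tissue-restricted isoforms, and its members were read by isoform. The 7 probe sets of the common isoforms Cox4i1, Cox6b1, Cox7a2, Cox7b, Cox8a and Ndufa4 were all above the stricter 99th percentile line on every array. Of the 7 restricted isoforms, 4 were above the 95th percentile line on every array and 2, Cox4i2 and Cox6b2, above the 99th. Cox7b2, a testis isoform, had 4.91, 5.45, 5.11 and 5.32, below the line on all arrays. Cox8b, of heart and skeletal muscle, had 6.54, 6.66, 6.59 and 6.47 and passed the line on 3 arrays by less than 0.1. Ndufa4l2, known as a gene induced by hypoxia, had 6.34, 6.55, 6.63 and 6.68 and passed it on 2. A value at the line does not tell a low level of transcript from unspecific signal.

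Just above the line were Cox7a1, the isoform of heart and skeletal muscle, with 7.20, 6.97, 7.12 and 7.22, and Cox8c, a testis isoform, with 7.03, 7.01, 7.20 and 6.94. Each passed the 99th percentile line on 1 array. Cox4i2, the isoform known from lung, had 7.47, 7.42, 7.54 and 7.81 and passed it on all. Cox6b2, known from testis, had 8.01, 8.86, 8.76 and 8.46, the largest SD of the complex (0.38), with its lowest value on replicate 1 at a shift of -0.68.

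The common isoforms averaged at least 3.26 over the line, a distance that also depends on how well each probe set hybridizes. Cox4i1, the subunit that begins assembly of the enzyme together with Cox5a, had 9.97, 10.08, 10.29 and 10.06, highest on replicate 3. Cox6b1, on the intermembrane side, had 11.86, 11.91, 11.71 and 11.84, lowest on replicate 3. Cox8a, a small transmembrane subunit, had 12.04, 12.08, 12.00 and 11.91. Cox7a2 had 9.96, 9.90, 10.25 and 9.96, and Ndufa4 9.59, 9.76, 10.15 and 9.84 (SD 0.24). Both were highest on replicate 3. Cox7a2l, which helps to join complexes III and IV into supercomplexes, had 8.59, 8.65, 8.64 and 8.56 by one probe set and 8.25, 8.05, 8.03 and 8.09 by the other. Counted neither as common nor as restricted, these probe sets averaged 2.04 and 1.53 over the line. Cox7b, on the X chromosome, had 12.86, 12.80, 12.90 and 12.92, and 11.04, 11.23, 11.14 and 11.09. Among subunits with a single gene, Cox5a had 10.35, 10.43, 10.78 and 10.60, and Cox5b had 12.20, 12.30, 12.56 and 12.41 by one probe set and 11.56, 11.67, 11.95 and 11.90 by the other. All 3 of these probe sets were lowest on replicate 1 and highest on replicate 3, as were both of Cox6c.

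**Figure D5:**
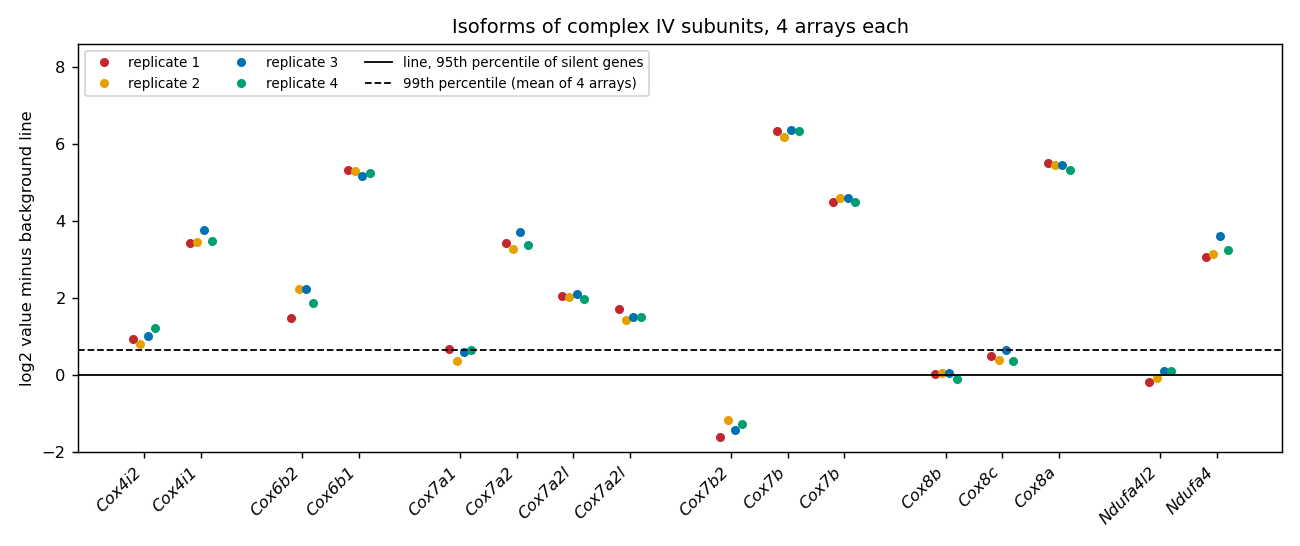
Log2 value minus the background line of the same array (vertical axis) for restricted and common isoforms of complex IV subunits, with the restricted isoforms left of the common ones in each group (horizontal axis; a symbol that appears again is another probe set); points are the 4 replicate arrays, the solid line is the background line and the dashed line the 99th percentile. The restricted isoforms average -1.37 to 1.95 and the common ones 3.26 to 6.30 over the line. Cox7a2l, drawn beside Cox7a2, is counted in neither set and averages 2.04 and 1.53 by its probe sets. Distances of different probe sets to the line are not comparable as levels.

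In complex V the subunits of the catalytic head differed in spread. Atp5b, the catalytic beta subunit, had 13.47, 13.50, 13.52 and 13.51 on the arrays of replicates 1 to 4 (SD 0.024). Atp5a1, the alpha subunit, had 11.88, 12.00, 12.15 and 12.03 (SD 0.11). The largest spreads above background were those of Atp5h, subunit d of the peripheral stalk, with 11.09, 11.05, 11.64 and 11.38 by probe set 10392930 (SD 0.28) and 10.01, 9.99, 10.57 and 10.27 by probe set 10542520 (SD 0.27). Replicate 3 was highest in both. The third probe set of Atp5h, 10359297, had 4.84, 4.84, 5.37 and 4.65, below the line on every array.

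Subunit c, the proton-carrying ring of the rotor, is encoded by 3 genes whose mature products are known to be identical. Atp5g3 had 11.53, 11.90, 11.87 and 11.82. Atp5g1 had 12.29, 12.67, 12.42 and 12.49 by probe set 10391100, and 7.85, 7.94, 7.72 and 7.44 by probe set 10390237. Both genes were highest on replicate 2 by each of these probe sets. Atp5g2 had 12.36, 12.44, 12.45 and 12.38 by probe set 10560816, 9.49, 9.63, 9.63 and 9.51 by probe set 10433049, and 8.85, 9.15, 8.81 and 8.84 by probe set 10447566. The first and second of these were highest on replicate 3 and the third on replicate 2. Over all members 17 genes had several probe sets, 41 in sum and up to 5 for Atp5l. For 6 of these genes every probe set was highest on the same array, for 4 lowest on the same array, and for 3 (Cox5b, Cox6c and Uqcr11) both.

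Among the assembly factors, Ndufaf2 had 7.55, 7.82, 7.82 and 7.99 (SD 0.18) and Ndufaf6 had 7.52, 7.68, 7.72 and 8.02 (SD 0.21), lowest on replicate 1 and highest on replicate 4. Of the 3 X-linked member genes, Ndufa1 had 7.997, 8.13, 8.51 and 8.19, and Ndufb11 had 10.89, 10.75, 10.95 and 10.85 by probe set 10603837 and 11.48, 11.39, 11.45 and 11.38 by probe set 10525471. On replicate 3, the array that differed in sex-linked RNA, 2 of the 5 probe sets of X-linked members were highest and 0 lowest. Highest there were 43.8% of all members, 21.0% of 778 X-linked single-symbol probe sets and 21.2% of all single-symbol probe sets.

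Genes of the pathway outside this choice were mostly above background as well, as were 63.5% of single-symbol probe sets. Each list gene was given by the probe set with the highest mean. Of 13 subunits encoded by mitochondrial DNA, 2 had a probe set of their own. ND3 of complex I had 13.60, 13.46, 13.51 and 13.47, and COX2 of complex IV had 13.61, 13.37, 13.45 and 13.55. Both were highest on replicate 1, where 59 of the 112 nuclear-encoded members were lowest. Of 6 electron carrier genes 5 were above the line on every array. Cycs, the somatic cytochrome c, had 12.91, 12.94, 12.83 and 13.03, and Cyc1, the cytochrome c1 of complex III, had 10.91, 11.14, 10.81 and 10.90. Cyct, the testis form of cytochrome c, had 3.79, 3.41, 3.82 and 3.95 and was the exception. A further list held assembly factors and related genes such as Atpif1, Lrpprc and Taco1, and all 36 with a probe set were above the line. Their median shift was -0.09 on replicate 1, with 27 of 36 lower, and 0.07 on replicate 3, with 26 of 36 higher. Over all single-symbol probe sets 11131 of 21640 were lower on replicate 1 and 10483 higher on replicate 3. Of 14 regulators of mitochondrial biogenesis 13 were above the line, with median shifts on replicates 1 and 3 of 0.02 and -0.03. The exception was Ppargc1a, a coactivator known from energy-demanding tissues, with 6.88, 6.37, 6.49 and 6.24, above the line on replicate 1 only. Its relatives Ppargc1b and Pprc1 were above it on every array.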

How the data were processed

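Samples prepared from total RNA were hybridized to Affymetrix Mouse Gene 1.0 ST arrays. The deposited values are log2 intensities per probe set, and the authors name RMA for background correction and normalization; the set of arrays normalized together, and the cutoff of the filter on low expression, were not given in the sources used here. Values span 2.27 to 14.6, with array medians of 7.31 to 7.35. All columns belonged to a sample (0 did not). Precision is limited by the number of arrays.

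Genes were named from the platform annotation (21640 probe sets with 1 symbol, 1321 with several, 11799 with none listed). All 88 member genes matched the RefSeq table (GRCm38.p6) by gene identifier, with 0 symbols changed. The members, lists and rules were chosen with earlier results of these data known. Given array by array were members not above the line, the 2 largest SDs per complex, isoform sets, core subunits and X-linked members (48 probe sets); other genes were chosen after their values were seen. List genes were given by the probe set with the highest mean. To count as above background a probe set had to exceed the line on all 4 arrays, as 45 receptor probe sets did themselves. A shift is the value on 1 array minus the mean of the others. Protein sequences were not used here.

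Alternatives were other background lines (the 90th and 99th percentiles, the array median, and 213 taste and vomeronasal receptor probe sets alone), 3 of 4 arrays, limma's test of a mean over the line (one-sided, Benjamini-Hochberg at 0.05), quantile normalization, cyclic loess, median centring, 1 probe set per gene, subunits only, members above the line only, Ndufa4 with complex I, means, ranges, a background of like mean value, and leaving out each array. The shift and limma steps were tested on simulated data. Software was limma 3.58.1 under R 4.3.3, and pandas 2.3.3, numpy 2.4.6 and matplotlib 3.10.9 under Python 3.11.15.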

Additional observations from a re-analysis of the deposited data

Results flagged for a closer look

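Among the 112 members 5 probe sets (4.46%) had 1 array far from the other arrays by Dixon's ratio, against 5.35% of single-symbol probe sets; chance gives about 1 in 20. The probe set 10360026 of Uqcrb stood apart with 8.79 on the array of replicate 4, against a mean of 9.60 on the others, while the other probe sets of the gene did not. Ndufa10, an accessory subunit of complex I, stood apart with 11.14 on that of replicate 1, against 11.32. Ndufa3, another, did so with 10.86 on that of replicate 4, against 10.79. Probe set 10447566 of Atp5g2 had 9.15 on that of replicate 2, against 8.84. Ndufaf3, an assembly factor, had 10.22 on that of replicate 3, against 10.09. Outside the members, Xist stood apart with 5.48 on that of replicate 3.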

How the results depend on the processing

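No paired analysis was possible because there was 1 group only. The count of members above the line was 106 to 110 of 112 under the other lines, 3 of 4 arrays, limma and other normalizations, 85 of 88 with 1 probe set per gene and 108 to 109 without each replicate. The members lowest on replicate 1 numbered 57 to 68 under the other settings of all members or those above the line and 63 to 69 without each other replicate, where 35.8% to 37.6% of single-symbol probe sets were lowest there. Without replicate 1, 51 of 112 were highest on replicate 3 (45.5%), against 32.0%. The members' median shift on replicate 1 was -0.10 to -0.13 over all settings. It was 0.04 to 0.10 on replicate 3, lowest without replicate 1. The median range over the arrays was 0.281, against 0.279 over all single-symbol probe sets. Of the shifts by complex, that of complex I on replicate 1 was -0.17 with 1 probe set per gene and that of the assembly factors there -0.13 as a mean. Leaving out replicates gave -0.038 to 0.035 for complex I and -0.062 to 0.038 for complex II on replicate 4. On replicate 2 it gave -0.082 to 0.0033 for complex II (the other sign without replicate 3), -0.098 to 0.027 for complex IV and -0.061 to 0.060 for assembly factors, and on replicate 3 it gave 0.011 to 0.12 for assembly factors. Against the 99th percentile line the mean distance of Cox7a1 was -0.076 and that of Cox8c -0.16; over the main line it was -0.024 to 0.035 for Cox8b without each replicate in turn and -0.059 to 0.036 for Ndufa4l2, above 0 without replicate 4 for Cox8b and without replicate 1 for Ndufa4l2. The cause was not tested. Signal near the background line limits what can be said of the restricted isoforms.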
